A study of Mus musculus with 2 samples.

Results

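The MAP kinase phosphatases Dusp1, Dusp2, Dusp4, Dusp5 and Dusp6, the Sprouty genes Spry1, Spry2 and Spry4, and the Sprouty-related genes Spred1 and Spred2 were followed in LSEC, the liver sinusoidal endothelial cells, whose fenestrated layer lines the liver's capillaries. The 10 genes were chosen by name, through the gene names printed on the array, and they have 11 probes among the 39429 non-control probes, and stand among 31697 genes and unnamed transcripts in all. There was 1 male wild-type animal and 1 male ob/ob animal, each aged 8 weeks. An ob/ob animal lacks functional leptin throughout the body from birth and becomes obese, so the genotype is not limited to the endothelium. LSEC of both mice were obtained by collagenase digestion and then spent a night in medium with serum before total RNA was taken and labelled with Cy3. Each RNA was read on 1 array, so each value below is that of 1 array, no test was possible, and a difference compares 2 arrays rather than genotypes.

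Mitogen-activated protein kinases (ERK, JNK and p38) are switched on by phosphorylation of a threonine and a tyrosine, and the MAP kinase phosphatases switch them off by removing both phosphates. Growth factors acting through receptor tyrosine kinases induce these phosphatases together with Sprouty and Spred proteins, which act further upstream between receptor, Ras and Raf, so that the pathway limits its own output. In endothelial cells this feedback is known for restraining the response to vascular endothelial and fibroblast growth factors.

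Of the 10 genes, 8 were measured (well above background) on both arrays, and Spry2 and Spry4 on the ob/ob array only. Dusp2 was at least 2-fold higher and Dusp4 at least 2-fold lower in ob/ob cells, and the other 6 lay within 2-fold. Among all 18066 genes measured on both arrays by the same probe, 5.83% were at least 2-fold higher, 2.30% at least 2-fold lower and 8.13% beyond 2-fold in either direction, so 1 higher and 1 lower of 8 are counts too small to set the group apart. The median log2 difference, ob/ob minus wild-type, was 0.19 over the 8 genes and -0.12 over all genes, and the 8 ran from -1.22 to 1.40. Spots of 1 probe repeated on an array gave an SD of 0.08 for a log2 difference between single spots (median of 252 probes), and for 3744 genes with several measured probes the SD among them was 0.33. Neither holds the spread between mice or preparations. In sorted or isolated bulk cells, a change in the number of cells that make an RNA and a change in RNA per cell cannot be told apart.

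**Figure D1:**
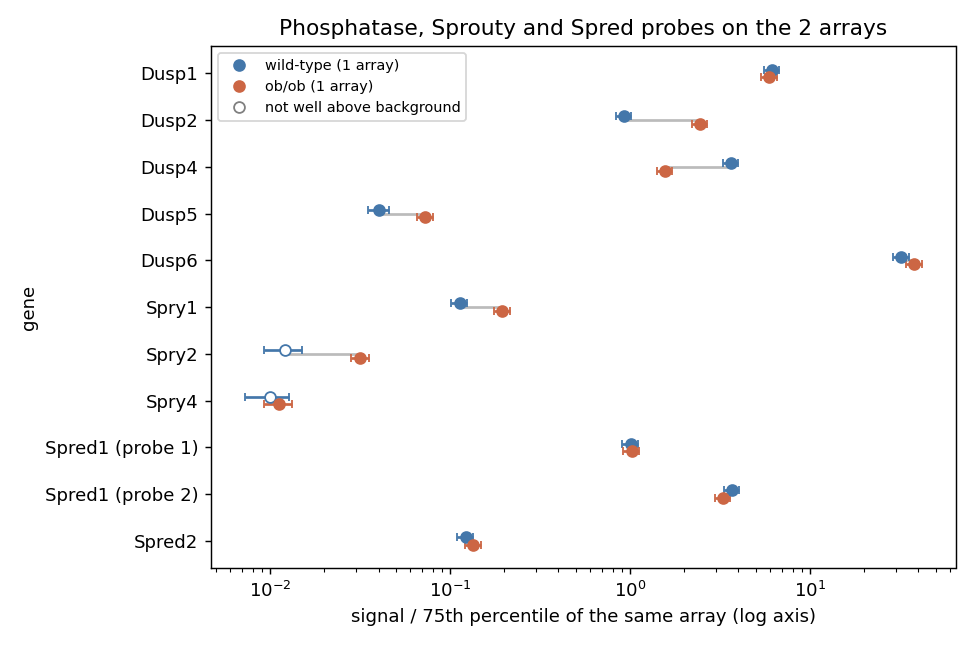
Processed signal relative to its array's 75th percentile (log axis) for the 11 probes of the 10 genes, with 1 point per array and bars of 1 SD from the scanner's error model; hollow points were not well above background. Dusp2 and Dusp4 are separated in opposite directions, from 0.925 to 2.44 and from 3.63 to 1.56, and levels of different genes are not comparable because each has its own probe.

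Of the 8 genes measured on both arrays, Dusp2 and Dusp4 differed most. Dusp2, a nuclear phosphatase best known from activated leukocytes, had processed signals of 914 (wild-type) and 3490 (ob/ob), or 0.925 and 2.44 of the 75th percentile of each array. The ob/ob array was the higher one, and the log2 difference was 1.40 (2.64-fold), with an SD of 0.20 from the scanner's error model. That difference exceeded those of 96.3% of all genes. The Dusp2 probe maps to chromosome 2, 127163930 to 127163989 (mm9, plus strand).

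Dusp4, a nuclear phosphatase that acts on ERK and JNK, ran the opposite way. Its signals were 3587 (wild-type) and 2230 (ob/ob), or 3.63 and 1.56 after scaling. The wild-type array was the higher one even before scaling, and the log2 difference was -1.22, with a scanner SD of 0.20, so that the wild-type value was 2.33 times the ob/ob value. Only 1.2% of all genes had a lower difference. The Dusp4 probe lies on chromosome 8 at 35882045 to 35882104 (mm9, plus strand). Dusp2 kept a log2 difference between 1.12 and 1.51 and Dusp4 between -1.50 and -1.11 under the 11 other ways of processing. Not all of these were a check. Other probe choices and filters had to return the same values, since neither gene has a further probe or a flagged spot. The authors' deposited values rest on the same processed signal and scaling. The other scaling, background correction, centring and spot values could move the differences, and both genes stayed beyond 2-fold under each.

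The stretches below, bases 1 to 30 of the 60-base probes, show what was read for these genes and for a pair of others whose probes matter further down.
Dusp2: gtgggcatctcgctgtaattggtgctgaaa
Dusp4: aataacggcggtttccgctgccagagaaga
Spry2: tagagggttaggggatttgtggtttgcagt
Spred1, probe 1: gtgatatgctccagcaaacaggttaaaaat
Spred1, probe 2: cattaatattttcagtttgtttaaccactt
None of the 11 probes shared 20 consecutive bases with a probe of another gene on the array. Only probe sequences were compared, so close copies in the rest of other transcripts were not looked for.

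Dusp1, an immediate early phosphatase that acts mainly on p38 and JNK, had signals of 6083 and 8480, which became 6.15 and 5.93 after scaling. The log2 difference of -0.05 was smaller than its scanner SD of 0.20 and ran from -0.33 to 0.13 over the other ways of processing, so it has no settled sign. For this probe the array file maps only 11 of its 60 bases, on chromosome 17 at 26642526 to 26642536 (mm9, minus strand). Dusp5, a nuclear phosphatase specific for ERK, was dim on both arrays, with signals of 39.7 and 104. Scaled, these became 0.0402 and 0.0727, a log2 difference of 0.86 with a scanner SD of 0.25. The mean pixel signal of the Dusp5 spots was 119 and 176, beside local backgrounds of 64.5 and 57. The sign turned only when normexp correction was combined with the 75th percentile, which gave -0.88. The remaining 10 ways gave 0.23 to 0.97, the lowest of them with normexp correction and quantile normalization.

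Dusp6, the cytoplasmic ERK phosphatase and a common readout of ERK activity, gave strong signals of 31875 and 54300. No spot was flagged as saturated. After scaling these were 32.2 and 37.97, with a log2 difference of 0.24 beside a scanner SD of 0.20. The difference ranged from -0.04 with scaling on the array median to 0.61 after centring on genes of like level, and it was positive in all but the first of these. The Dusp6 probe maps to chromosome 10, 98729985 to 98730044 (mm9, plus strand), and that of Dusp5 on chromosome 19 at 53615682 to 53615741.

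Upstream sequence was at hand for 8 of the 10 genes in RefSeq's GRCm38.p6 table. The windows of 250 bases before the start site of Dusp1 (chr17:26508473-26508722, minus strand), Dusp2 (chr2:127335909-127336158, plus strand), Dusp5 (chr19:53528895-53529144, plus strand) and Dusp6 (chr10:99262981-99263230, plus strand) are shown to describe the motifs near their starts. A link between these motifs and the array values was not tested. Capitals mark motif matches, namely the CRE and the E-box in Dusp1, the E-box in Dusp2 and the CArG boxes in Dusp5.
Dusp1: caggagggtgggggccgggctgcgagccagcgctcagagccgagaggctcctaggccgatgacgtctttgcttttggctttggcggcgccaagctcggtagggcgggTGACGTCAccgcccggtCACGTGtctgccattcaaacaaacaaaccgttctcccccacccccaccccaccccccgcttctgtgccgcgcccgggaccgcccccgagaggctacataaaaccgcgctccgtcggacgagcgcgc
Dusp2: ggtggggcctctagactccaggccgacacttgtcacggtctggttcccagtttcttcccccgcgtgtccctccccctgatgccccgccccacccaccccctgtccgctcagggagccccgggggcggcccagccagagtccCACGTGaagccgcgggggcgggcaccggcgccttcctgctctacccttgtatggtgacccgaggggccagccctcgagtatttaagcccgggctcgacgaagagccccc
Dusp5: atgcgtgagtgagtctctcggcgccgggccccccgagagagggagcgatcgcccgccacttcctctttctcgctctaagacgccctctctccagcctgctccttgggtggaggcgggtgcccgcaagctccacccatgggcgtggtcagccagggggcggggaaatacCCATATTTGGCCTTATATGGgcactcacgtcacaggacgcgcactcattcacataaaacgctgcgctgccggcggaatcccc
Dusp6: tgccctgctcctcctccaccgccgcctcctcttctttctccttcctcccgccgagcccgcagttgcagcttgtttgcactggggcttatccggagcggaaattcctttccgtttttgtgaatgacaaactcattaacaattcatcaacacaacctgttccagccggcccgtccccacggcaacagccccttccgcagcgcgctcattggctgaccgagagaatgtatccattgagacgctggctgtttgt
Motifs were searched on both strands. The cyclic AMP response element TGACGTCA occurred in 1.55% of 32851 promoter windows of this length and, among the members, in Dusp1, at 143 to 136 bases before the start. The CArG box, the serum response factor motif, occurred in 1.47% of windows and in Dusp5, as a pair at 82 to 73 and 72 to 63 bases before the start. The E-box CACGTG occurred in 6.02% of windows and in Dusp1 and Dusp2. The AP-1 motif TGANTCA (6.75% of windows), the ETS core CCGGAA (12.0%), the NF-kB motif (3.90%) and TATAAA (12.4%) matched in none of the 8 windows. Matches to these letters are a description of the sequence, and no match overlapped that of another motif.

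Sprouty genes were dim on both arrays. Spry1, an inhibitor of growth factor signalling to Ras and ERK, had signals of 112 and 278, or 0.113 and 0.194 after scaling. The ob/ob array was higher by 0.78 (scanner SD 0.21), which exceeded the difference of 92.3% of genes and lay within 2-fold. It was -0.13 with normexp and the 75th percentile, and 0.36 to 0.89 in the other 10 ways of processing. The Spry1 probe lies on chromosome 3 at 37543403 to 37543462 (mm9, plus strand).

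Spry2, which also binds the ubiquitin ligase Cbl, did not stand well above background on the wild-type array. Its signals were 11.9 there and 45.3 in ob/ob, which gave a nominal bound of 2.54-fold higher in ob/ob. This bound divides the ob/ob level by the dimmest signal well above background on the wild-type array, 12.3, after scaling. The Spry2 probe maps to chromosome 14, 106291845 to 106291904 (mm9, minus strand). Spry4, the Sprouty member on chromosome 18, had signals of 9.90 and 16. It likewise did not stand well above background in wild-type LSEC, its ob/ob signal was close to the background limit, and no fold is given. Of genes measured on at least 1 array, 10.5% stood above background in ob/ob alone, against 2 of these 10.

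Spred1 and Spred2, which bind Ras and bring the Ras-inactivating protein neurofibromin to the membrane, differed little between the arrays. The Spred1 probe at chromosome 2, 117005906 to 117005965 (mm9), gave 3646 and 4690, with a log2 difference of -0.17. The other Spred1 probe, at 117004952 to 117005011, had signals of 997 and 1460 and a difference of 0.02. The probes thus differed by 0.19 from each other, less than the SD of 0.33 between probes of a gene, and neither exceeded its scanner SD of 0.20. Spred2 gave 120 and 192, with a log2 difference of 0.14 beside a scanner SD of 0.21 (chromosome 11, 19922416 to 19922475). The sign of Spred2 turned under 4 of the 11 other ways of processing, the lowest being -0.75 with normexp and the 75th percentile.

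**Figure D2:**
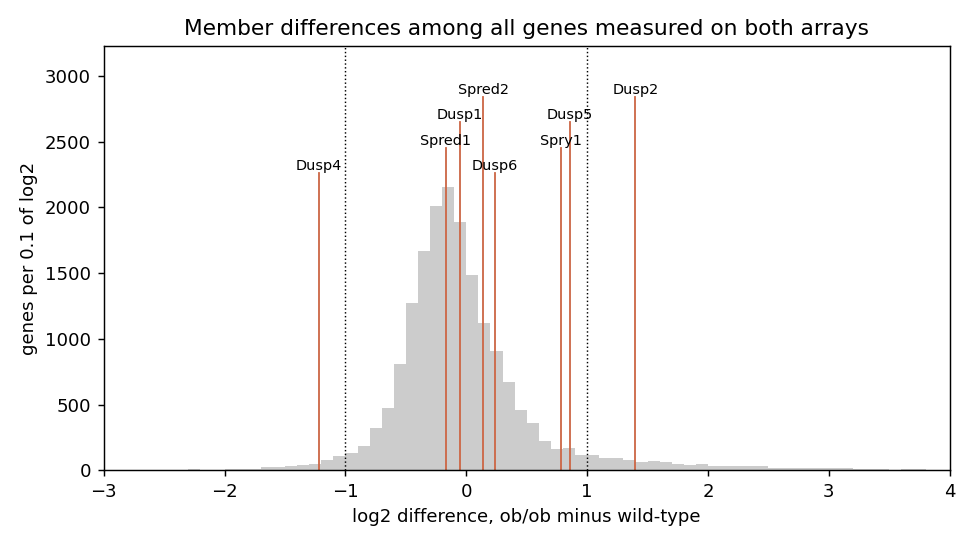
Histogram of the log2 difference, ob/ob minus wild-type, over the 18066 genes measured on both arrays, in bins of 0.1 and with the axis ending at -3 and 4, with the 8 measured genes as lines (Spred1 by its brighter probe) and dotted lines at 2-fold. Dusp4 at -1.22 and Dusp2 at 1.40 lie outside the dotted lines, Dusp5 and Spry1 just inside, and the rest near the bulk of genes.

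The spots themselves showed no local fault. None of the 11 was flagged as uneven or as an outlier, and their local backgrounds ranged from 57 to 69, beside array medians of 63 and 60. Spots within 4 rows and columns of each (35 to 49 measured spots) had median differences of -0.20 to -0.003, beside -0.12 over all genes. The authors' deposited table lists 9 of the 11 probes, leaving out those of Spry2 and Spry4, and its values give log2 differences of 1.40 for Dusp2 and -1.23 for Dusp4.

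Related phosphatases and inhibitors mostly stayed within 2-fold. The other MAP kinase phosphatases (Dusp7, Dusp8, Dusp9, Dusp10 and Dusp16) had 0 of 4 measured members beyond 2-fold and a median of 0.26. Dusp8 differed by 0.70 (other probe 0.22), Dusp10 by 0.41, Dusp16 by 0.11 (other probe -0.06) and Dusp7 by -0.28. Dusp9, measured in ob/ob alone, was 1.75-fold brighter there than its wild-type signal, which was not well above background. Atypical dual-specificity phosphatases are smaller enzymes of which many do not act on MAP kinases. They had 0 of 9 measured members higher and 2 lower, with a median of -0.23, beside 2.30% lower among all genes. The lower ones were Dusp14 at -1.69 (signals 1676 and 750) and Dusp13 at -1.49 (signals 50.9 and 26.2). Dusp3, the list's brightest, differed by -0.72, and its other probe by -0.30. Spry3 was above background on neither array, and Spred3, measured in ob/ob alone, had a nominal bound of 1.58-fold, reckoned as for Spry2.

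Of 13 measured genes that inhibit receptor tyrosine kinases, Ras or ERK by other routes, 1 was higher and 0 lower (median 0.10). The higher gene was Dok2, an adaptor of blood cells that dampens Ras signalling, at 2.63 (signals 332 and 2970). Lrig1 differed by 0.88 and its other measured probe by 1.695, so the count was 2 with the mean over probes. Il17rd, the Sef inhibitor of fibroblast growth factor signalling, differed by 0.05, Errfi1, an inhibitor of the EGF receptor, by 0.25, and Nf1, which encodes neurofibromin, by -0.24. Pebp1, the list's brightest, differed by -0.30.

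The kinases on which these inhibitors act were close to the median of all genes. In the Ras, Raf, MEK and ERK cascade, 0 of 21 members were beyond 2-fold, with a median of -0.11 and a range of -0.54 to 0.32. Mapk3, a kinase at the end of the cascade, differed by 0.006, the MEK genes Map2k1 and Map2k2 by 0.22 and -0.54, and the phosphatase Ptpn11, the list's brightest, by -0.20. Of 18 measured genes of the JNK, p38 and ERK5 cascades 1 was higher, the p38 activator Map2k6 at 2.16 (signals 76.3 and 492), and 0 were lower (median -0.08). Mapk7, which encodes ERK5 and was that list's brightest, differed by -0.48.

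Genes known to respond to ERK had 5 of 23 measured members at least 2-fold higher and 0 lower, with a median of 0.36, beside 5.83% higher among all genes. These were the AP-1 subunit Junb at 1.40, the immediate early genes Ier5 at 1.26 and Ier2 at 1.07, Phlda1 at 1.25 and the transcription factor Egr2 at 1.25. The other measured Ier5 probe gave 0.31. The count was 1 with scaling on the array median, 2 with normexp before the 75th percentile, and 3 if quantile normalization followed normexp, so it rests on the processing. Over the 23 measured members the differences ran from -0.63 to 1.40, and 16 were above 0. Fos differed by 0.42, Egr1 by 0.70, and the ETS factors Etv4 and Etv5, targets of fibroblast growth factor signalling like Dusp6 and the Sprouty genes, by -0.15 and 0.36. The AP-1 subunits Jun and Fosl1 went the other way from Junb and Fos, by -0.53 and -0.63. Ier3, the list's brightest, differed by -0.27.

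Of 20 measured receptor tyrosine kinases 5 were higher and 0 lower, with a median of -0.02, beside 5.83% higher among all genes. The higher ones were Axl at 1.74, the platelet-derived growth factor receptors Pdgfrb at 1.60 and Pdgfra at 1.44, the EGF receptor Egfr at 1.55 and the macrophage growth factor receptor Csf1r at 1.002. Pdgfrb, Pdgfra and Csf1r are counted again among the stellate cell and macrophage markers below, and Kdr, Tek and Tie1 among the endothelial markers. Over 3 measured probes each, Egfr gave 1.49 to 1.79 and Csf1r 0.02 to 1.34. Of the endothelial receptors, the angiopoietin receptor Tek differed most, by 0.88 (signals 1220 and 3240), and Tie1 by 0.31. The vascular endothelial growth factor receptors Kdr, Flt1 and Flt4 differed by -0.09, -0.25 and -0.19, and the other measured Kdr probe gave 0.20. The 3 measured Fgfr1 probes gave 0.24, -0.34 and -0.84. Kit, the list's brightest, differed by -0.02. Of 10 glucocorticoid receptor and response genes, a list included because glucocorticoids induce Dusp1, 1 was higher and 0 lower (median -0.16). The higher one was the transcription factor Cebpd at 1.63. Per1 and Mt1, the list's brightest, differed by -0.72 and -0.84, and Fkbp5 and Tsc22d3 by -0.14 and -0.18.

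**Figure D3:**
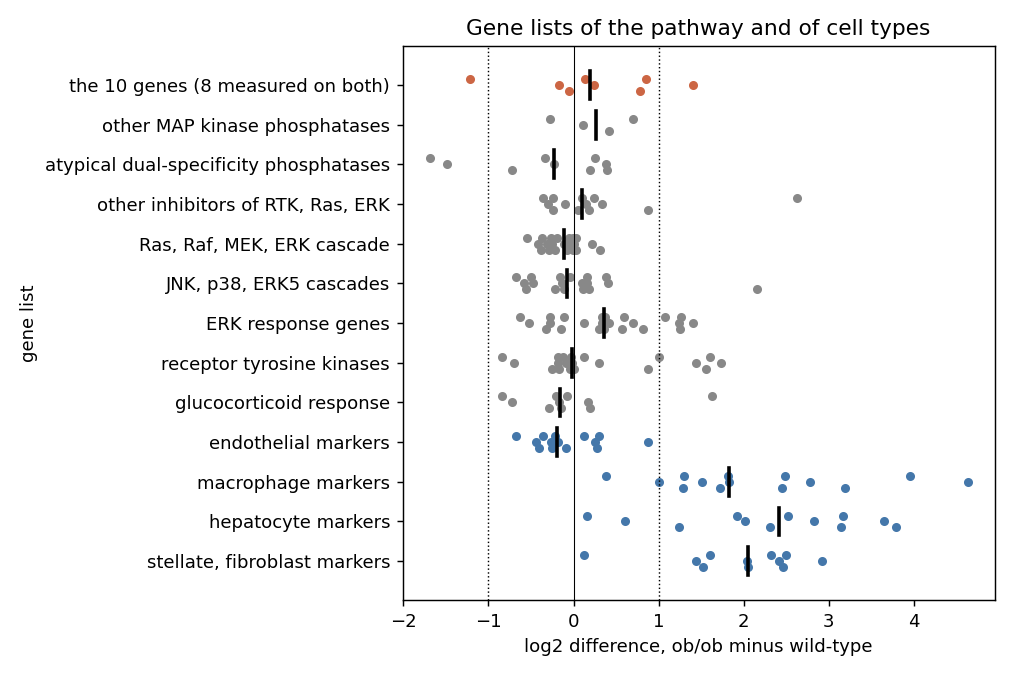
Log2 difference, ob/ob minus wild-type, of each gene measured on both arrays (points) with the list's median (black bar), for the phosphatase, Sprouty and Spred genes (orange), other lists of the pathway (grey) and cell type markers (blue), with dotted lines at 2-fold. The pathway lists have medians from -0.23 to 0.36, the endothelial markers -0.20, and the macrophage, hepatocyte and stellate cell markers 1.83, 2.42 and 2.05.

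Markers of other cells differed between these arrays. Endothelial and sinusoidal markers were measured on both arrays in 14 of 14 cases and none was beyond 2-fold (median -0.20, summed scaled signal 153 for wild-type, 124 for ob/ob). Of macrophage markers 13 of 14 were at least 2-fold higher in ob/ob cells (median 1.83, sum 57.1 and 162), of hepatocyte markers 10 of 12 (median 2.42, sum 6.83 and 37.1) and of stellate cell and fibroblast markers 10 of 11 (median 2.05, sum 9.06 and 37.0). The stellate count was 3 with normexp and the 75th percentile. Of lymphocyte markers 0 of 4 and of neutrophil markers 0 of 3 measured on both arrays were beyond 2-fold, while 3 of each list stood above background in ob/ob alone. The neutrophil marker Retnlg stood above background in wild-type alone. Of cholangiocyte markers 2 of 3 measured on both arrays were higher, Krt8 at 2.90 and Krt18 at 2.81. The third, Cftr, differed by -0.31, and 4 more stood above background in ob/ob alone. Some defining markers were present in wild-type cells, with signals of 1049 for Vsig4, 1536 for Alb and 7908 for Dcn, against 13900, 19700 and 47500 in ob/ob cells. Others were at or near the background limit there. Timd4 had a wild-type signal of 14.4 and Apob 13.5, and Col1a1 (10.5) and Reln (6.80) were not well above background. The part of these cells in the values of Dusp2, Spry1, Spry2, Dok2, Junb and the receptors was not tested. Nor was it tested for Dusp4, which was lower in ob/ob cells. Leptin itself was well above background in none of its 10 spots on either array, so it does not check the genotype labels.

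**Figure D4:**
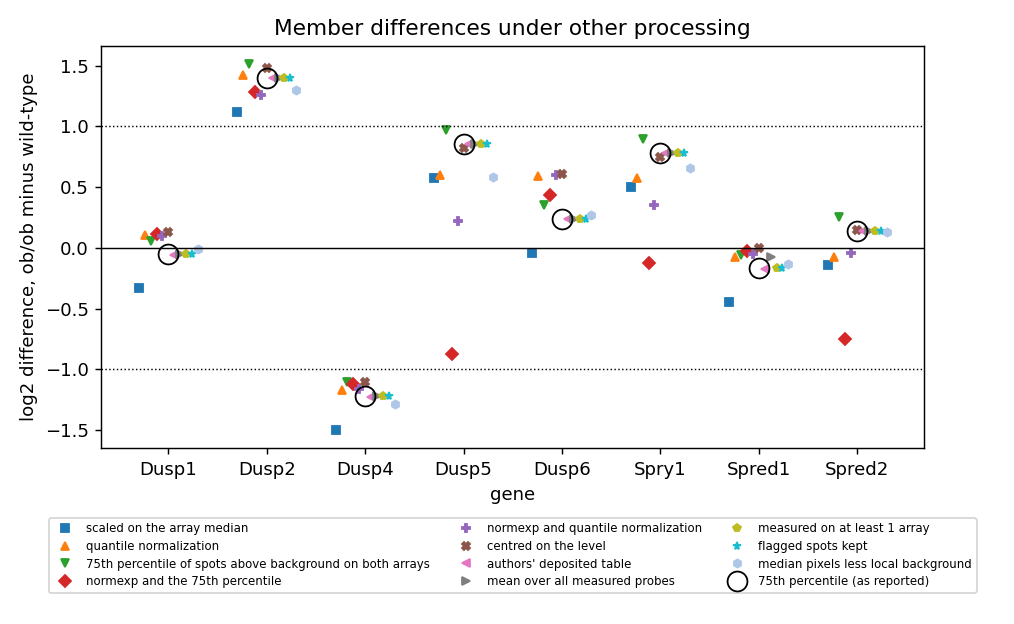
Log2 difference, ob/ob minus wild-type, of the 8 genes measured on both arrays as reported (open circles) and under 11 other ways of processing (small symbols), with dotted lines at 2-fold. All symbols of Dusp2 lie above 1 and all of Dusp4 below -1, while those of Dusp1, Dusp5, Dusp6, Spry1 and Spred2 fall on both sides of 0.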

How the data were processed

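The scanner output deposited for each mouse gives linear spot intensity from a 1-colour Agilent mouse array, design 026655, with 1 array per mouse. Background subtraction, spatial detrending and spot flagging were done in Agilent Feature Extraction 11.0.1.1, per the file headers (the version also per the submitters' processing notes). Its flags, deposited as values of 0 or 1, were used for background, saturation and outliers. Both arrays lie on the same slide and were scanned together, per the file headers. The authors' deposited table holds the ratio of processed intensity to the 75th percentile of the same array (medians 0.614 and 0.648). Probe positions are those of the array files, on mm9.

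Values were log2 of processed intensity minus log2 of the array's 75th percentile over 43020 non-control spots (989 and 1430). Flagged spots (236) were dropped and spots of a probe averaged. A gene took its brightest probe measured on both arrays. Signals of the ob/ob file carry 3 digits. Probes were named through RefSeq (GRCm38.p6): 26055 by main accession, 102 by another accession, 911 by synonym and 7639 by the file's name, and 4722 have no name. All 10 members, all their probes, members of other pathway lists beyond 2-fold and each such list's brightest were named, and other genes that the text gives from these lists or the marker lists were picked for their known roles after their values were seen. The value of 1 gene of the cascade is not reported here. Members and lists were chosen with earlier results of these data known. Steps were tested on simulated data. Python 3.11.15, R 4.3.3 and limma 3.58.1 (normexp, offset 50) were used. Alternatives were other scaling, background correction, centring on the running median of 501 genes, probe choice, filters and spot values.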

Additional observations from a re-analysis of the deposited data

How the results depend on the processing

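Each gene has 1 array per genotype, so no value has a replicate check. No paired analysis was possible because each group holds 1 array. Dusp2 and Dusp4, both beyond 2-fold, kept their direction and their side of 2-fold under all 11 alternatives. Some of these could not change their values, since each has 1 unflagged probe. The authors' deposited values rest on the same processed signal and scaling, so they are no separate check either. Spred1 stayed within 2-fold with values of -0.45 to -0.001. Its other probe gave 0.02, so its sign is not settled. The count of members at least 2-fold higher was 2 when probes measured on at least 1 array were used, since Spry2 then counts, with a wild-type signal not well above background. With scaling on the array median, the median of the Ras to ERK cascade was -0.39 and that of receptor tyrosine kinases -0.30, 1 ERK response gene and 2 glucocorticoid response genes were beyond 2-fold. That scaling moves every difference by the same amount. The cascade's median was 0.003 with the percentile taken over spots above background on both arrays and 0.00 after centring on the level. With normexp and the 75th percentile, 2 genes each of the Ras to ERK cascade, the JNK, p38 and ERK5 cascades, the ERK response and the glucocorticoid response were beyond 2-fold, beside 3794 genes lower and 369 higher in all. With normexp and quantile normalization 3 ERK response genes and 1 atypical phosphatase were, beside 508 higher and 130 lower in all. The atypical phosphatases also numbered 1 with median pixel signals, and the other inhibitors 2 with the mean over probes. The cause of these shifts was not tested. With scaling on the array median the counts over all genes were 765 higher and 972 lower, against 1054 and 415. Dim spots (Dusp5, Spry1, Spred2, Spry2, Spry4) are limited by signal over background.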

Other observations

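A probe that the array describes as Spred1 but lists only under the transcript ENSMUST00000110901 was left out of the 11 probes because its gene name is not the symbol. It lies on chromosome 2 at 116998491 to 116998550 (mm9). Its signals were 29.1 (wild-type) and 47.9 (ob/ob), both well above background, with a log2 difference of 0.19, beside -0.17 and 0.02 for the other Spred1 probes.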
